A study of Saccharomyces cerevisiae with 18 samples.

Results

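The genes described here encode the histones of budding yeast, the proteins that package its DNA. They were taken by their systematic names, and all 10 were present among the 6212 genes of the deposited table. H2A is encoded by HTA1 (YDR225W) and HTA2 (YBL003C), H2B by HTB1 (YDR224C) and HTB2 (YBL002W), H3 by HHT1 (YBR010W) and HHT2 (YNL031C), and H4 by HHF1 (YBR009C) and HHF2 (YNL030W). HTZ1 (YOL012C) encodes the H2A variant H2A.Z, and HHO1 (YPL127C) encodes the linker histone. Of 180 possible array values for these genes 177 were present, and 7 of the 10 genes had a value on all 18 arrays. CSE4, the H3 variant of the centromere, had no value on any array.

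DNA is wound around a core made of H2A, H2B, H3 and H4, and the linker histone binds where DNA enters and leaves that core. The core histone genes of yeast lie as divergent H2A-H2B and H3-H4 pairs, each with a shared promoter region, and are transcribed around the time of DNA replication. The HIR complex represses all of these pairs except HTA2-HTB2 outside that window, while Spt10 and Spt21 activate histone genes. HTZ1 stands apart, since H2A.Z is exchanged into nucleosomes, often beside promoters, by the SWR1 complex and not in the course of replication. Unlike the replication-dependent histone messages of animals, those of yeast carry a poly(A) tail, which the oligo(dT) primer used for labelling requires.

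Wild-type BY4741 cells, a laboratory strain in which HIS3, LEU2, MET17 and URA3 are deleted in all cultures, were compared between potassium-free medium with about 15 µM residual potassium and the same medium with 50 mM KCl. RNA was taken at 5 times from 10 to 120 min, and the series asks how transcripts respond to a sudden lack of potassium. The growth notes describe the potassium-free cells as already grown at 28 °C to an absorbance of 0.6 in potassium-free medium before washing, whereas the design text speaks of a sudden shortage, so the medium before the time course is not settled. Each spotted array held the RNA of both cultures and gave a log2 ratio per gene, potassium-free over KCl, for which the direction is likely from the array titles and the base from the range of values, and neither is stated.

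The arrays were analysed as 9 experiments, 1 at 10 min and 2 at 20, 40, 60 and 120 min, each a pair of arrays with the dyes exchanged. The array titles number every array of a time point as its own experiment, so this pairing was chosen here and is not labelled. Whether cultures of an experiment at different times were separate is not given, so p-values measure only the spread between these experiments. The arrays held 3913 to 5372 values, their medians ran from -0.237 to 0.179, and their number limits the precision. Arrays 3 and 4 of 120 min spread more widely over genes (SD 1.27 and 1.45) than arrays 1 and 2 (SD 0.925 and 0.839). A ratio gives no level, so levels were not compared between genes, and the strain could not be checked against markers. Fewer cells in the phase that makes histone messages and less histone message per cell cannot be told apart in these bulk samples.

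The histone genes were lower in potassium-free cells at 60 and 120 min, with the lowest means for HTB2, HTA2 and HHF1 at both times. At 60 min, means of the 10 genes ran from -3.75 for HTB2 to -0.58 for HTZ1, with a median of -1.73, while the median of all 4127 genes tested was -0.09. A limma test of the mean against 0 with a Benjamini-Hochberg adjusted p of 0.05 as threshold called all 10 lower at 60 min, where 25.1% of all genes tested were called lower. At 120 min it called 9 of 10 lower, all but HTZ1, against 22.0% of all genes, and the median of the histone genes was -1.25 against 0 for all genes. At 40 min it called 4 of 10 lower, HTA2, HTB2, HHF1 and HHF2, against 3.70% of all genes, with medians of -0.73 and 0.01. The count at 40 min rests on few experiments: it was 0 without 1 or the other 40 min experiment, 1 without either 20 min experiment and 2 without array 3 of 120 min, and it was 8 when each array was taken as a replicate. HTB2 also lost its call without array 1 of 40 min (adjusted p = 0.054). No histone gene was called higher at any time, while 5.23%, 21.7% and 20.4% of all genes were called higher at 40, 60 and 120 min.

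At the early times no histone gene passed the test. Means ran from -0.35 to 0.01 at 10 min and from -0.25 to 0.14 at 20 min. The medians of the histone genes were -0.11 and -0.13, against -0.01 and 0.01 for all genes. The same test called 0% of all genes lower at 10 min and 0.0229% at 20 min, and 0% and 0.459% higher, and no histone gene had an unadjusted p under 0.05 at these times. HTB1 and HTB2 were below 0 on all arrays at 10 and 20 min, and HHT2 was above 0 on all 4 arrays at 20 min.

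**Figure D1:**
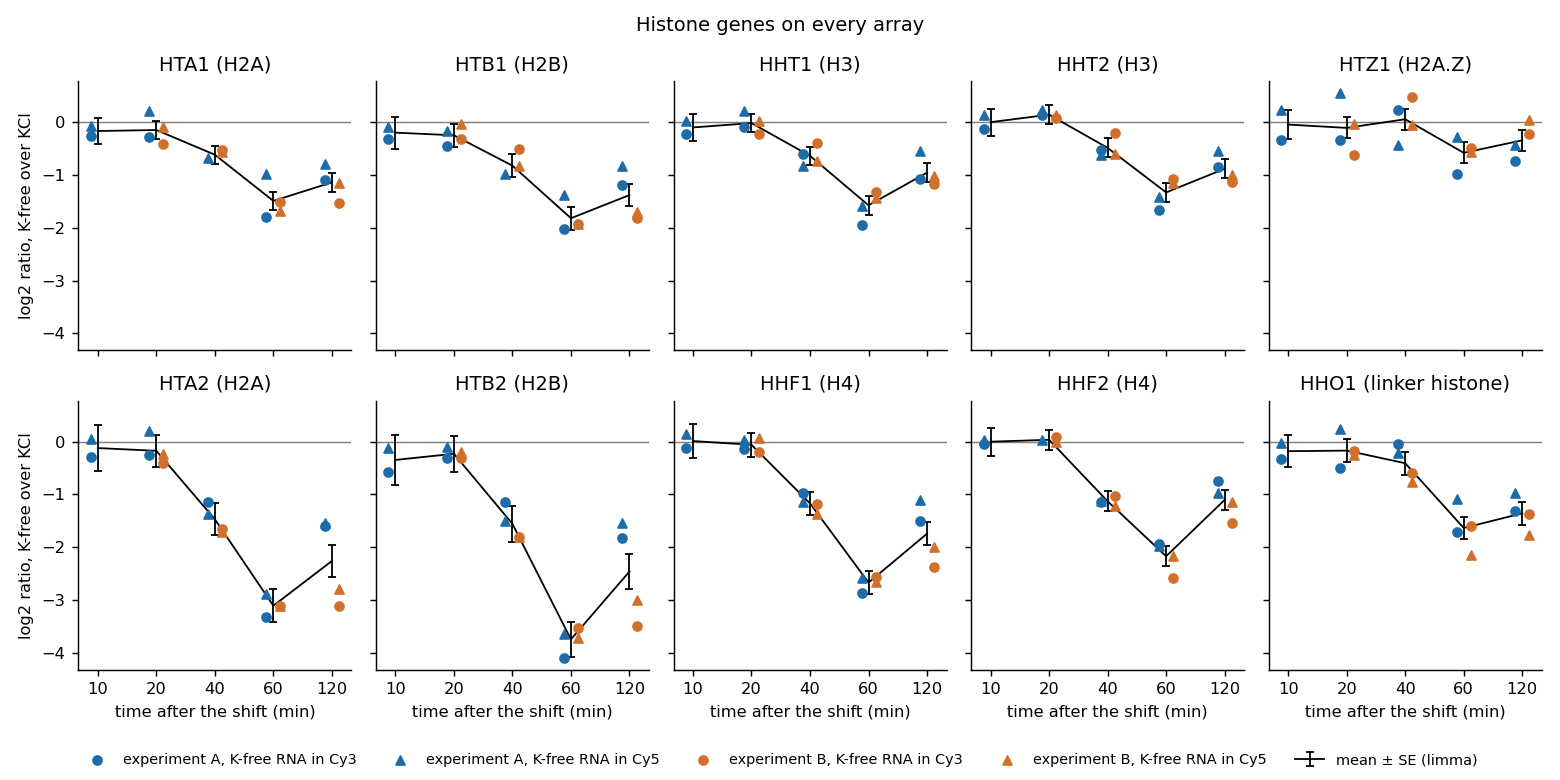
Log2 ratio (potassium-free over KCl) of each histone gene on each array, by time in min, with equal steps between times and the mean ± SE as a line. HTB2 reached -3.52 to -4.09 on the 60 min arrays, and HTZ1 lay between -0.99 and 0.55 on all arrays.

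**Figure D2:**
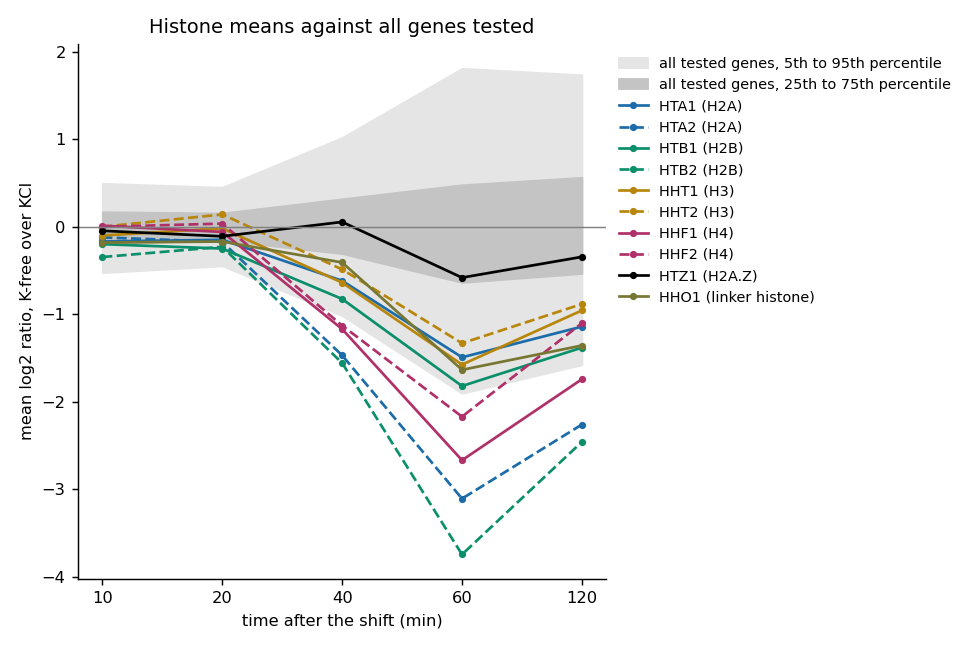
Mean log2 ratio of the 10 histone genes at each time point beside the range of all genes tested, shaded in percentile bands that the legend names. The histone genes other than HTZ1 lay below the middle of all genes from 40 min on, and the 10 genes had medians of -0.73, -1.73 and -1.25 at 40, 60 and 120 min.

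Among the genes for H2A and H2B, those of the HTA2-HTB2 locus were the lowest. HTB2 was at -1.50, -1.14, -1.80 and -1.80 on the arrays of 40 min. At 60 min it was at -3.65, -4.09, -3.52 and -3.72, and at 120 min at -1.82, -1.54, -2.99 and -3.48. Every one of these arrays was below -1, and at 120 min arrays 3 and 4, of the second experiment, lay well below arrays 1 and 2. The mean of HTB2 was -1.56 ± 0.34 at 40 min (SE, 2 experiments; adjusted p = 0.036), -3.75 ± 0.34 at 60 min (adjusted p = 0.00048) and -2.46 ± 0.34 at 120 min (adjusted p = 0.0019). At 60 min this is 13.4-fold lower in potassium-free cells, the 4th lowest mean of the 4127 genes tested. With arrays scaled to the same median absolute value the mean was -2.35, or 5.11-fold lower.

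HTA2, which shares the promoter region with HTB2, ran close to it. It was at -1.37, -1.13, -1.66 and -1.71 on the 40 min arrays, at -2.89, -3.31, -3.11 and -3.12 on those of 60 min, and at -1.60, -1.53, -2.80 and -3.12 on those of 120 min. The 4 arrays of 60 min lay within a narrow band, and the second experiment of 120 min was again the lower one. Means were -1.47 ± 0.31 at 40 min (adjusted p = 0.033), -3.11 ± 0.31 at 60 min (adjusted p = 0.00062; 8.62-fold lower) and -2.26 ± 0.31 at 120 min (adjusted p = 0.0019; 4.79-fold lower).

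The other H2A-H2B locus moved in the same direction by less. HTA1 had no value on array 2 of 40 min and was at -0.69, -0.52 and -0.57 on arrays 1, 3 and 4. At 60 min it was at -0.98, -1.79, -1.52 and -1.68, and at 120 min at -1.10, -0.79, -1.15 and -1.53. All were below 0, and array 1 was the highest of 60 min. The means of HTA1 were -1.49 ± 0.17 at 60 min (adjusted p = 0.00099; 2.81-fold lower) and -1.14 ± 0.17 at 120 min (adjusted p = 0.0027), and its -0.62 at 40 min did not pass (adjusted p = 0.068).

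HTB1, its divergent partner, lacked a value on the same array of 40 min and was at -0.99, -0.51 and -0.83 on the others. It was at -1.39, -2.03, -1.93 and -1.94 at 60 min and at -1.19, -0.82, -1.69 and -1.81 at 120 min. Array 1 stood above the rest at 60 min, as for HTA1. Means were -1.82 ± 0.21 at 60 min (adjusted p = 0.0010; 3.53-fold lower), -1.38 ± 0.21 at 120 min (adjusted p = 0.0028), and -0.83 at 40 min, which did not pass (adjusted p = 0.055).

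The H4 genes had lower means than the H3 genes at 40, 60 and 120 min. HHF1 was at -1.15, -0.98, -1.19 and -1.37 on the arrays of 40 min, at -2.58, -2.86, -2.57 and -2.66 on those of 60 min, and at -1.50, -1.10, -1.99 and -2.38 on those of 120 min. HHF2 was at -1.12, -1.15, -1.03 and -1.21 at 40 min, at -1.98, -1.94, -2.59 and -2.17 at 60 min, and at -0.75, -0.97, -1.15 and -1.54 at 120 min. The 40 min values of both genes lay close together over arrays, and both passed the test at each of these times. HHF1 averaged -1.17 ± 0.22, -2.67 ± 0.22 and -1.74 ± 0.22 at 40, 60 and 120 min (adjusted p = 0.026, 0.00048 and 0.0018). HHF2 averaged -1.13 ± 0.19, -2.17 ± 0.19 and -1.10 ± 0.19 (adjusted p = 0.018, 0.00048 and 0.0040). At 60 min these are 6.35-fold and 4.50-fold lower in potassium-free cells.

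The H3 genes passed at 60 and 120 min. HHT1 was at -0.84, -0.60, -0.39 and -0.73 at 40 min, at -1.59, -1.95, -1.32 and -1.44 at 60 min, and at -1.08, -0.55, -1.02 and -1.18 at 120 min. HHT2 was at -0.62, -0.52, -0.20 and -0.61 at 40 min, at -1.42, -1.66, -1.08 and -1.16 at 60 min, and at -0.86, -0.55, -0.99 and -1.14 at 120 min. For both genes array 3 was the highest at 40 and 60 min, and array 2 at 120 min. HHT1 averaged -1.58 ± 0.18 at 60 min (adjusted p = 0.00085; 2.98-fold lower) and -0.96 ± 0.18 at 120 min (adjusted p = 0.0054). HHT2 averaged -1.33 ± 0.18 at 60 min (adjusted p = 0.0014; 2.52-fold lower) and -0.88 ± 0.18 at 120 min (adjusted p = 0.0087). At 40 min their means of -0.64 and -0.49 did not pass (adjusted p = 0.065 and 0.13).

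The folds at 60 min depend on the scale of the arrays. With arrays scaled to the same median absolute value they were 3.87 for HTA2, 3.20 for HHF1, 2.58 for HHF2, 2.20 for HTB1, 2.03 for HHO1, 1.98 for HHT1, 1.90 for HTA1 and 1.78 for HHT2, and these 8 genes kept their calls.

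Core calls at 120 min depended on how the spread was estimated. With a spread from 120 min alone, a fit added after seeing the data, 5 of the 10 genes were called, and HTA1, HHT1, HHT2 and HHF2 were lost. Without the second experiment of 120 min 6 were called, and HHT1, HHT2 and HHF2 were lost.

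Copies of a histone type differed in their log2 ratios, though the H3 copies only by a small amount that was present from 10 min on. In each experiment the ratio of a copy was set against that of the other. The 9 differences were tested with a two-sided exact sign-flip permutation test, adjusted over 5 pairs by Benjamini-Hochberg. They come from all time points, so the SDs here and below hold the change with time besides the spread between experiments. The test asks about the mean over all times, not about any single time. HTA2 minus HTA1 averaged -0.81 ± 0.72 (SD, n = 9; exact p = 0.0156, adjusted 0.0195) and was below 0 on 14 of 17 arrays. HTB2 minus HTB1 averaged -0.86 ± 0.80 (SD, n = 9; exact p = 0.0117, adjusted 0.0195), also below 0 on 14 of 17 arrays. In both, the difference was near 0 at 10 and 20 min and below 0 on every array from 40 min on. At 60 min it ran from -1.91 to -1.44 for H2A and from -2.27 to -1.59 for H2B.

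The H3 and H4 copies differed the other way and by less. HHT2 minus HHT1 averaged 0.15 ± 0.071 (SD, n = 9, exact p = 0.00391, adjusted 0.0195). That exact p is the smallest that 9 experiments allow. The difference was above 0 on all 18 arrays, at 10 and 20 min as well as later. By time it averaged 0.10, 0.16, 0.15, 0.24 and 0.07 at 10, 20, 40, 60 and 120 min. It was thus present before either gene passed. HHF2 minus HHF1 averaged 0.27 ± 0.34 (SD, n = 9; exact p = 0.0312, adjusted 0.0312), with 5 of 17 arrays below 0. Its mean was 0.50 at 60 min and 0.64 at 120 min, where it ran from 0.13 to 0.84. With the experiments of 40, 60 and 120 min alone its mean was 0.39 and its adjusted exact p 0.0625. The call was also lost without either experiment of 60 or 120 min, without the second of 20 or 40 min, and without array 1 of 10 min, 3 of 20 min, 1 of 40 min or 4 of 60 min, with means from 0.20 to 0.29. Copies of a type share much of their sequence, and whether probes on the arrays shared signal was not tested.

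**Figure D3:**
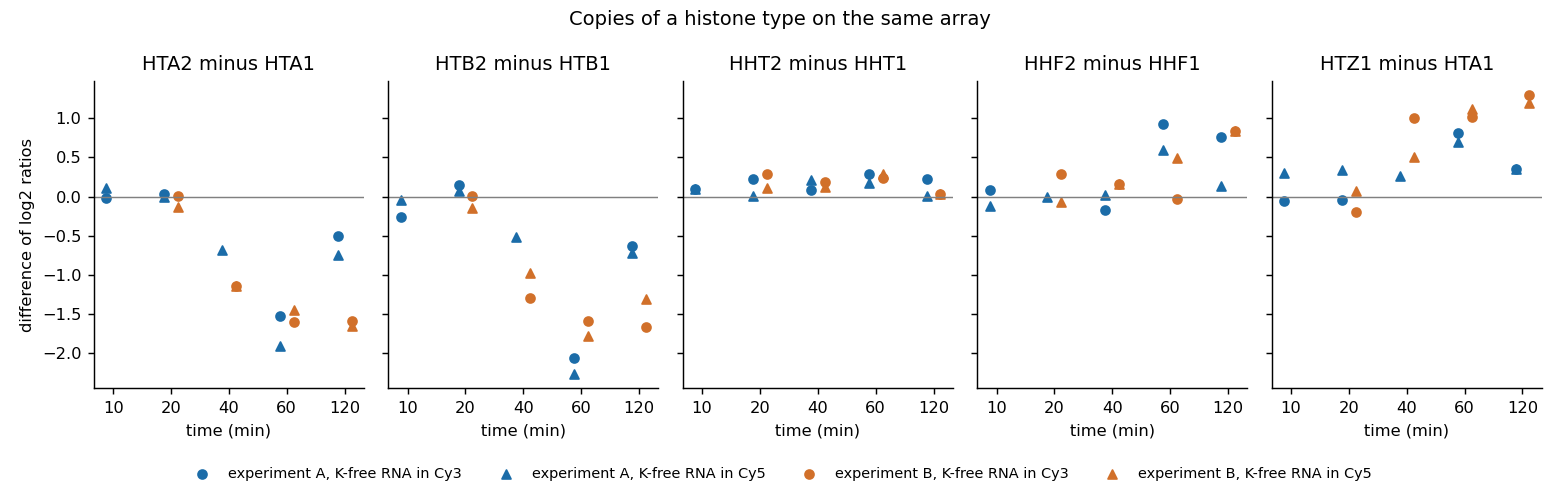
Difference of log2 ratios between genes of the same histone type on each array, by time in min: HTA2 minus HTA1, HTB2 minus HTB1, HHT2 minus HHT1, HHF2 minus HHF1, and HTZ1 minus HTA1. The H2A and H2B differences lie near 0 at 10 and 20 min and between -2.27 and -1.44 at 60 min, and the H3 difference is above 0 on all 18 arrays.

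Genes of a divergent pair could also be set against each other. These differences were chosen after their values were seen and carry no test. At 60 min HTB1 minus HTA1 had a mean of -0.33, from -0.42 to -0.23, and HTB2 minus HTA2 a mean of -0.64, from -0.78 to -0.42. HHF1 was lower than HHT1 on all 12 arrays from 40 min on, with a mean difference of -1.09 at 60 min and a range from -1.24 to -0.92. HHF2 lay below HHT2 on all 4 arrays at 40 min (mean -0.64) and at 60 min (mean -0.84), and on 3 of 4 at 120 min (mean -0.22). Within both H3-H4 pairs the H4 gene was thus the lower on every array at 40 and 60 min.

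**Figure D4:**
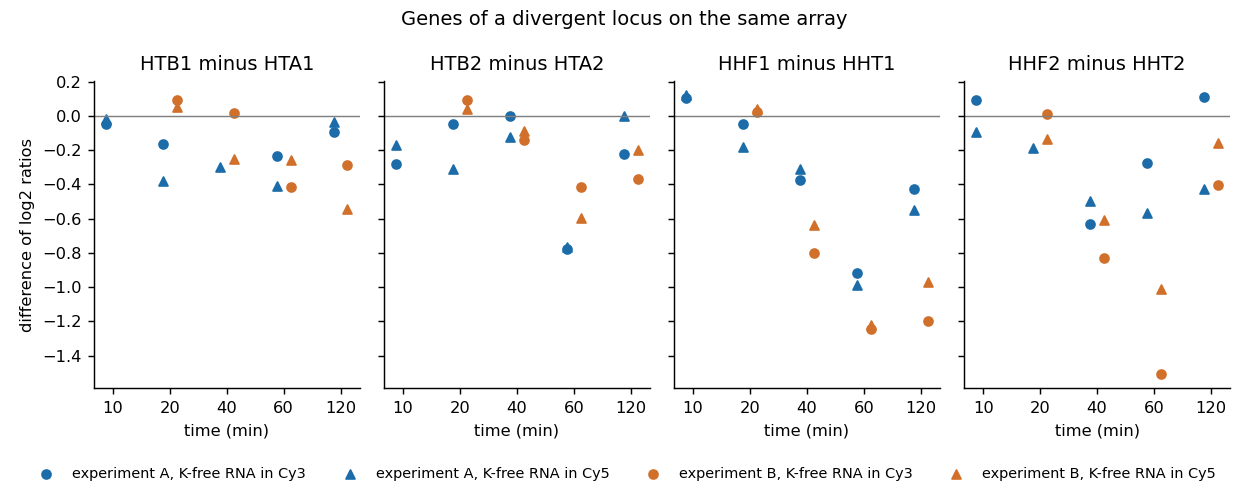
Difference of log2 ratios between the genes of each divergent pair on each array, by time in min. HHF1 minus HHT1 was -1.24 to -0.92 at 60 min, against -0.42 to -0.23 for HTB1 minus HTA1.

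HTZ1 had the mean nearest to 0 of the 10 genes at 40, 60 and 120 min, though not at 10 or 20 min. It was at -0.43, 0.24, 0.47 and -0.06 on the arrays of 40 min, at -0.28, -0.99, -0.50 and -0.56 on those of 60 min, and at -0.75, -0.44, 0.04 and -0.23 on those of 120 min. Its arrays fell on both sides of 0 at every time point except 60 min. The mean was 0.06 ± 0.20 at 40 min (adjusted p = 0.87), -0.58 ± 0.20 at 60 min (adjusted p = 0.044; 1.5-fold lower) and -0.34 ± 0.20 at 120 min (adjusted p = 0.19). The call at 60 min was lost when arrays were centred on their medians (-0.52, adjusted p = 0.058) or brought to the same spread (-0.36, adjusted p = 0.23), in the fit of 60 min alone (adjusted p = 0.085), and without either experiment of 20, 40 or 60 min. It was also lost without array 2 or array 4 of any time from 20 min on. Without array 2 of 60 min the mean was -0.41 (adjusted p = 0.16). The log2 ratio of HTZ1 exceeded that of HTA1 by 0.51 ± 0.46 (SD, n = 9; exact p = 0.00781, adjusted 0.0195), with 3 of 17 arrays below 0, all of them at 10 and 20 min.

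HHO1, the linker histone gene, was at -0.22, -0.05, -0.60 and -0.77 at 40 min, at -1.08, -1.70, -1.60 and -2.15 at 60 min, and at -1.31, -0.97, -1.77 and -1.38 at 120 min. All 12 values were below 0, and at 40 min the second experiment was lower than the first. Means were -0.41 ± 0.21 at 40 min (adjusted p = 0.26), -1.64 ± 0.21 at 60 min (adjusted p = 0.0013; 3.11-fold lower) and -1.36 ± 0.21 at 120 min (adjusted p = 0.0030; 2.56-fold lower).

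The size of the ratio differed with time for most of these genes. A moderated F test in limma over 20, 40, 60 and 120 min passed for 9 of 10, all but HTZ1 (adjusted p = 0.28), where 20.7% of 3714 genes passed. Tests of neighbouring times, from 20 to 40, from 40 to 60 and from 60 to 120 min, called no histone gene, and 0% of all genes. At an unadjusted p under 0.05 they gave 382, 847 and 792 genes. The median change over the 10 genes was -0.62, -1.02 and 0.53 in these steps. With each array as a replicate the steps called 4, 9 and 4 of the histone genes. The F test called 4 when arrays were brought to the same spread, and 0 without either 20 min experiment.

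The 8 core genes averaged -0.97 and -1.01 in the experiments of 40 min, -2.26 and -2.22 in those of 60 min, and -1.11 and -1.87 in those of 120 min. The experiments agreed closely at 40 and 60 min and stood apart at 120 min. With all arrays brought to the same median absolute value, the averages were -0.95 and -1.10, -1.40 and -1.41, and -0.93 and -1.05. On that scale the gap between the experiments of 120 min was smaller, and 60 min was still the lowest.

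Genes that act on histone genes or on histones were read from lists, and none of their members passed at 10 or 20 min. Of the regulators of histone transcription, 1 of 9 tested was lower at 40 min (HIR2, a HIR complex subunit), and none at 60 or 120 min. The shares of all genes called lower were 3.70%, 25.1% and 22.0% at these times. In the other direction 1 of 9 was higher at 60 min, and 0 of 8 passed in either direction at 120 min. The one at 60 min was YTA7, which encodes a bromodomain ATPase that acts at histone genes, with a mean of 0.94, where, as given above, 21.7% of all genes were called higher. ASF1, the chaperone that works with the HIR complex, was at -0.45, HIR2 at -0.40 and the G1 factor MBP1 at -0.20, while HPC2 of the HIR complex was at 0.30 and RTT106 at 0.20, and none of these passed. The median of the list was 0.05 at 60 min.

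Among chaperones, acetyltransferases and importers of histones, 1 of 14 tested was lower at 40 min, 5 of 13 at 60 min and 6 of 13 at 120 min, where 1 was higher. Of all genes 3.70%, 25.1% and 22.0% were lower at these times, and 20.4% were higher at 120 min. The count at 120 min was 1 with arrays scaled to the same median absolute value, 3 without array 1 of 120 min, and 0 without its second experiment and in the fit of 120 min alone. CAC2, of the CAF-1 complex that loads H3 and H4 behind the replication fork, was called at -2.27 at 60 min. HIF1, of the Hat1 histone acetyltransferase complex, was called at -2.10, and RTT109, which acetylates new H3, at -1.46. The H2A-H2B chaperone NAP1 was at 0.27, SPT6 at 0.19 and POB3, of the FACT complex, at 0.35, and none of these passed at 60 min. NAP1 was the member that passed as higher at 120 min, at 0.58. The median of the list was -0.42 at 60 min and -0.38 at 120 min.

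Of the SWR1 complex that deposits H2A.Z, 0 of 10 tested were called lower at 40 min, 1 of 8 at 60 min and 1 of 10 at 120 min, and 2 of 10 were higher at 120 min. Of all genes 3.70%, 25.1% and 22.0% were lower at 40, 60 and 120 min, and 20.4% were higher at 120 min. These counts are thus no more than the background. ARP4, an actin-related subunit also found in other chromatin complexes, was the lower one at both times and stood at -0.87 at 60 min. RVB1 was at -0.35, SWC5 at -0.28, VPS72 at 0.44, SWC4 at 0.37 and BDF1 at 0.25, none of which passed at that time. The list had a median of -0.07 at 60 min.

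Of the genes of DNA replication, 7 of 19 tested were called lower at 40 min, 8 of 15 at 60 min and 5 of 14 at 120 min, beside 3.70%, 25.1% and 22.0% of all genes, and none was called higher. The count at 40 min ran from 0 to 14 over the alternatives. Their medians were -0.49, -0.85, -1.29, -1.19 and -0.80 at 10, 20, 40, 60 and 120 min. MCD1, a cohesin subunit, was called at -2.88 at 60 min. Its means at 10, 20 and 40 min were -1.74, -2.35 and -2.53, of which only the last passed. RFA3, of the single-strand binding complex RPA, was called at -2.51 at 60 min. RNR1, the large subunit of ribonucleotide reductase, was at -2.22 without passing (adjusted p = 0.061). Its arrays at 60 min ran from -3.90 to 1.77, with 3 of 4 below 0. The least changed at 60 min were CLB5 at -0.19, CTF18 at -0.22 and DPB2 at -0.44. The medians of this list cover different genes at each time. Over the 15 genes tested at both 40 and 60 min the median was -1.11 at 40 min and -1.19 at 60 min, and 13 of the 15 were lower at 60 than at 40 min.

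**Figure D5:**
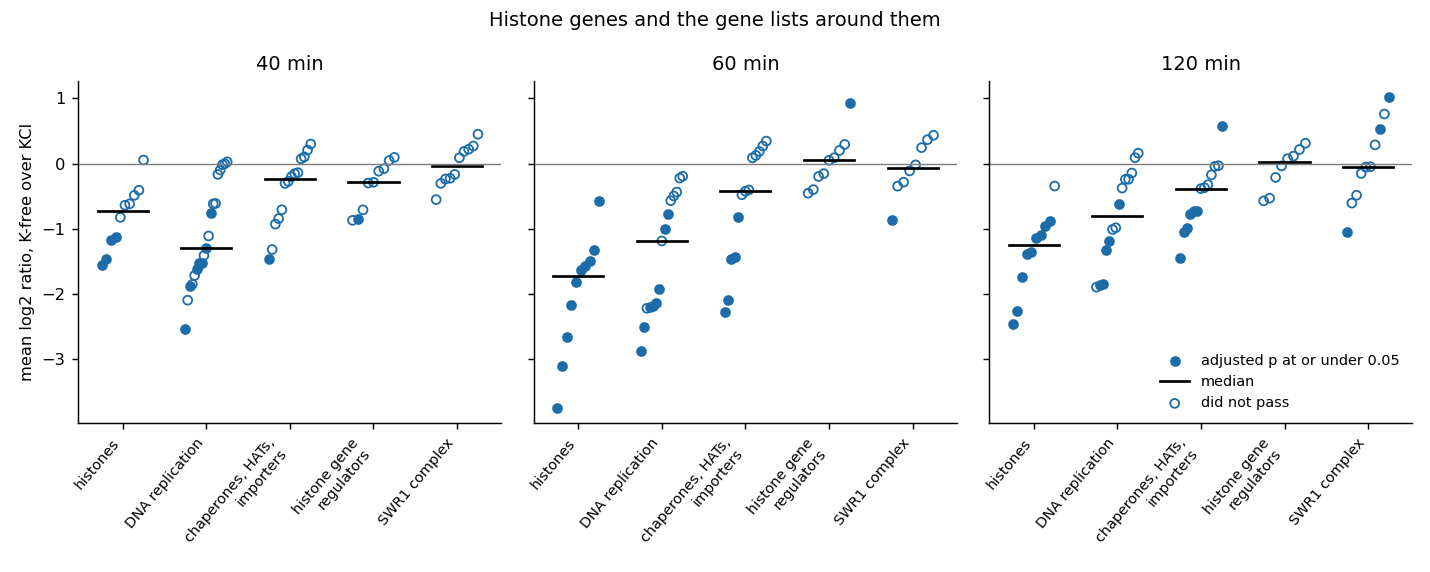
Mean log2 ratio (potassium-free over KCl) of the tested members of each list at 40, 60 and 120 min, with filled points for genes that passed the test and a line at the median. At 60 min medians were -1.73 for the histone genes, 0.05 for the regulators, -0.42 for the chaperones, -0.07 for the SWR1 complex and -1.19 for the replication genes.

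The genes next to the histone loci were called about as often as all genes at 60 min. The 4 divergent pairs, HTZ1 and HHO1 make 6 loci, with 12 flanking genes by the order of genes in RefSeq. At 60 min 3 of 10 tested were lower and 2 were higher, beside 25.1% and 21.7% of all genes, with a median of 0.03. KTR5, a mannosyltransferase gene beside HHF2, was at 1.64 (adjusted p = 0.00057). It was above 0 on all arrays of every time point where it had a value. UTP20, a gene of small ribosomal subunit assembly beside HTA2, was at -2.68 (adjusted p = 0.0026). ECM15, on the other side of that locus, was at 0.52 (adjusted p = 0.069). NAN1, also of ribosome assembly and beside HHO1, was at -2.23. TBF1, on the other side of HHO1, was at -0.70, and PLB3 beside HTZ1 was at 0.56. At 120 min 2 of 11 were lower and 3 higher, beside 22.0% and 20.4% of all genes, and at 40 min 0 of 11 were lower and 1 was higher, beside 3.70% and 5.23%.

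The genes whose 9 experiment values lay nearest to the mean of the 8 core histone genes were sought among 3636 genes by the root mean square difference of log2 ratios. The 8 nearest were VRG4 (0.182), NOP58 (0.232), GDA1 (0.259), MEU1 (0.266), AIM34 (0.269), NOP56 (0.273), CBF5 (0.274) and SRO9 (0.276). VRG4 encodes the GDP-mannose transporter of the Golgi, and NOP58, NOP56 and CBF5 encode core proteins of the small nucleolar ribonucleoproteins that modify ribosomal RNA. VRG4 averaged -0.25, -0.20, -1.12, -2.23 and -1.64 from the earliest to the latest time. Of the 22 replication genes listed, 11 had values in all experiments and could be compared, and RFA3 and MCD1 were not among them. The nearest of the 11 was CDC21, the thymidylate synthase gene, at 0.481, which was 97th in the order. Among the 8 core genes themselves the distance from the core mean ran from 0.246 for HHF2 to 0.919 for HTB2, and was 0.443 for HHO1 and 1.12 for HTZ1.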

How the data were processed

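RNA of both cultures was hybridised to 18 spotted arrays. The authors deposited 1 log2 ratio per gene and array, per the labels with dye swaps. How spots were corrected for background and normalized is not given in the sources used here. Arrays of the same time point correlated at r = 0.229 or more, so within a time point ratios had likely been turned the same way. Over all array pairs the lowest r was 0.0416, which is too near 0 to settle this between time points. Array 2 of 10 min has the same dye named for both channels, so its orientation was read from its title. Which arrays share an experiment is not labelled: arrays 1 and 2, and arrays 3 and 4, were paired and averaged.

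In limma 3.58.1 (R 4.3.3) a mean per time point was fitted over 9 experiments and tested against 0, two-sided, with 1 spread per gene (prior df 3.49, residual df 4). P-values were adjusted by Benjamini-Hochberg over all genes tested. A gene was tested with values on at least 3 of 4 arrays, or on both at 10 min. The lone experiment of 10 min is assumed to vary like the others. The method was tested on simulated data. RefSeq R64 gave names (5662 of 6212) and gene order.

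The histone genes and lists were chosen with earlier results of these data known. Named are all histone genes and CSE4, from each list the 3 lowest and 3 highest at 60 min, flanking genes and the 8 nearest genes; NAP1 at 120 min and HIR2 at 40 min were named after their values were seen. Alternatives were other pairings, blocks, scalings, filters and thresholds, and leaving out arrays or experiments.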

Additional observations from a re-analysis of the deposited data

Results flagged for a closer look

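HTB1 at 60 min had 1 array far from the others. Array 1 was at -1.39 and the nearest of the other arrays at -1.93, a gap of 0.853 of the whole range. This was 1 of 37 groups of 4 arrays examined, and chance alone gives about 1 in 20.

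The ratio differed between 20, 40, 60 and 120 min in the moderated F test for 9 genes. The adjusted p was 0.0242 for HTA1, 0.019 for HTA2, 0.0285 for HTB1, 0.0188 for HTB2, 0.0209 for HHT1, 0.024 for HHT2, 0.0188 for HHF1, 0.0188 for HHF2 and 0.0258 for HHO1.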

How the results depend on the processing

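No mean that passed the test at 40, 60 or 120 min changed sign under an alternative. Of 920 repeats of these means, 872 kept the call and 48 lost it. Many of these repeats left out an array or experiment of another time or changed only the threshold. Such repeats could not change the sign of a mean. At 40 min the count of histone genes called, 4 as reported, was 8 with arrays paired the other way, with arrays as replicates, with a random block per experiment, with a dye term and with arrays scaled to the same median absolute value, 7 with quantile normalization, 0 at a threshold of 0.01 and 7 at 0.1. It was 0 to 5 with arrays or experiments left out. At 60 min the count was 9 to 10 throughout. At 120 min it was 5 in the fit of that time alone and 6 to 9 with parts left out. The steps from 20 to 40, 40 to 60 and 60 to 120 min, 0 as reported, called 4, 9 and 4 genes with arrays paired the other way, arrays as replicates or a dye term, and 2, 9 and 3 with a random block. The F test, 9 as reported, called 4 with scaled arrays, 3 with quantile normalization, 0 at a threshold of 0.01, and 0 to 9 with parts left out. The cause of these shifts was not tested.

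Deviations of same-numbered arrays of different times correlated at a median r of 0.016 (24 pairs, from -0.364 to 0.525). At 120 min each array number had the dyes opposite to those at the other times compared. A dye effect could thus raise r in some pairs and lower it in others, so whether the numbers pair arrays is not settled. With a replicate block 8 genes were called at 40 min, and 4, 9 and 5 in the steps between times. With the block the copy differences were -0.83 for HTA2 minus HTA1, -0.89 for HTB2 minus HTB1, 0.15 for HHT2 minus HHT1, 0.29 for HHF2 minus HHF1 and 0.54 for HTZ1 minus HTA1, each with an adjusted exact p of 0.125, the smallest that 4 numbers allow. The difference of the H4 copies was 0.39 over 40, 60 and 120 min alone (adjusted exact p = 0.0625) and 0.20 to 0.32 with parts left out.

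Signs turned only for means that had not passed. With the block HHF1 was at -0.11 and HTZ1 at 0.014 at 10 min, and HHF2 at 20 min was at -0.040 with centred arrays and -0.044 with quantile normalization. With parts left out, means at 10 min ran from -0.29 to 0.047 for HTA2, -0.23 to 0.028 for HHT1, -0.13 to 0.15 for HHF1 and -0.33 to 0.24 for HTZ1. At 20 min they ran from -0.10 to 0.064 for HHT1, -0.13 to 0.007 for HHF1, -0.33 to 0.11 for HTZ1 and -0.35 to 0.015 for HHO1, and at 40 min from -0.11 to 0.22 for HTZ1. Lower calls in the lists moved more. At 40 min they ran over the alternatives from 0 to 3 for the regulators, 0 to 5 for the chaperones, 0 to 1 for the SWR1 complex and 1 to 14 for the replication genes (0 to 9 with parts left out). At 60 min they ran from 0 to 1, 3 to 7 (2 to 5 with parts left out), 1 to 1 (0 to 1) and 6 to 12 (4 to 9) in the same order of lists. At 120 min they ran from 0 to 2, 0 to 6, 0 to 3 and 2 to 9. The promoter motif search was not run. Only 2 experiments per time point, and 1 at 10 min, limit all p-values, and neither signal nor background is in the values used here.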

Other observations

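Each experiment holds both dye assignments, so the ratio with potassium-free RNA in Cy5 can be set against the ratio with it in Cy3. Which arrays form an experiment is not labelled, and arrays 1 and 2, and 3 and 4, were paired. The Cy5 array gave the higher histone ratio in 10 of 10 comparisons at 10 min and in 17 of 19 at 20 min. The comparisons are of genes on the same pairs of arrays and are not independent. At 40 min it did so in 2 of 18, at 60 min in 10 of 20 and at 120 min in 18 of 20. The median gap was 0.27 at both early times, then -0.18 at 40 min, 0.12 at 60 min and, last, 0.31 at 120 min. With arrays 1 and 3, and 2 and 4, paired instead, a choice made after seeing the data, the Cy5 array was higher in 17 of 19 at 20 min, 4 of 18 at 40 min, 14 of 20 at 60 min and 11 of 20 at 120 min. At 10 and 20 min the gap in the pairing used was as large as the means of most histone genes at those times. The medians of all genes differed between the same arrays too. Cy5 minus Cy3, the gap of these medians was 0.21 at 10 min and 0.25 and 0.05 in the experiments of 20 min. It was -0.28 and 0.02 at 40 min, 0.24 and 0.03 at 60 min, and 0.20 and -0.10 at 120 min. The largest gap of a single histone gene was 0.88, for HTZ1 at 20 min.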
